A study of Mus musculus with 4 samples.

Results

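The 8 genes described here carry the insulin signal from the cell surface to the nucleus: the receptor Insr, the receptor substrates Irs1 and Irs2, the regulatory subunit Pik3r1 of phosphoinositide 3-kinase (PI3K), the kinases Akt1 and Akt2, and the transcription factors Foxo1 and Foxo3. They were taken by gene name from GENCODE M21, out of 21728 protein-coding genes, and every replicated peak of acetylated histone H3 lysine 27 (H3K27ac) that lay in the gene or within 50 kb of either end was assigned to it. This gave 148 of the 63061 peaks of the list, with no peak shared between windows. Chromatin immunoprecipitation with an antibody to the mark, followed by sequencing, was done on frozen hearts of female mice aged 2 months of the strain B6CASTF1/J, a cross of C57BL/6J and CAST/EiJ. All 4 libraries belong to 1 group, with no treatment and no other genotype, age or sex to set against it. Hearts were pooled in pairs, and the 2 pools, each sequenced as 2 technical replicates, are the biological replicates. Both pools carry the same donor label, so differences between them may be technical. The files used here give no value per library, since peaks were called after technical replicates were joined, and the lists of the single biological replicates serve as the measure of spread. With 1 group and 1 list per replicate no test between conditions was possible, and all values are descriptions.

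H3K27ac stands on active promoters and enhancers. Insulin binding makes the receptor phosphorylate its substrates, the substrates recruit PI3K through its regulatory subunit, and the lipid made by PI3K brings AKT kinases to the membrane. AKT phosphorylates FOXO factors and so keeps them out of the nucleus, where they would otherwise raise genes of protein breakdown, autophagy and fuel choice. In heart muscle the pathway governs glucose uptake and cell size, and AKT2 is the form most closely tied to glucose uptake in insulin-responsive tissues.

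The promoter sequences show how differently the genes begin. Promoter windows of RefSeq on GRCm38.p6, from 250 bases before to 50 bases after a start, were available for 12 starts of 7 of the 8 genes, all but Insr, and for 21044 starts of protein-coding genes in all. The bases before the start are printed 5′ to 3′ on the strand of the gene, up to the first annotated exon, and capitals mark matches on either strand to the consensus sequences named with each. The promoters of both receptor substrates are shown first because they hold the same pair of consensus sequences. The pair is an E-box (CACGTG) and the insulin response element (CAAAACA, read on the other strand), a sequence that FOXO proteins bind. The pair overlaps in Irs1 and lies side by side in Irs2. In Irs1, at chr1:82291440-82291689 on the minus strand, the E-box overlaps the element, and the bases TG belong to both. A second copy of the element follows, and a TEAD consensus (GGAATG) lies further from the start. In Irs2, at chr8:11008930-11009179 on the minus strand, 1 base separates the E-box from the element, and CCAAT boxes and an SP and KLF box (GGGGCGGGG) precede them.
Irs1 promoter: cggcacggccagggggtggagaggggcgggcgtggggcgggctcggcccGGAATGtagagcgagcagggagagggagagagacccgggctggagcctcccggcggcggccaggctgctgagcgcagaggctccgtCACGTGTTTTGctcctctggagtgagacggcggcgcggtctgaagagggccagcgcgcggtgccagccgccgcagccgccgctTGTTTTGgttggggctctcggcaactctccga
Irs2 promoter: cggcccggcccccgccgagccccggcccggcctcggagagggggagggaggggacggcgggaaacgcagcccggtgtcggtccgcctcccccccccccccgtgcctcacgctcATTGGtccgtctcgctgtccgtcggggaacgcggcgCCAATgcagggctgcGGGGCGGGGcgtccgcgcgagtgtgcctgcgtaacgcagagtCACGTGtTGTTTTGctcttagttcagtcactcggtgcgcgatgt
An E-box was found in 7.91% of all promoter windows and the insulin response element in 5.26%. Both together were found in 80 windows or 0.380%. They overlapped or lay at most 1 base apart in 6 windows, each of a different gene. Irs1 and Irs2 are among these 6. This spacing was examined after the sequences had been read, and a match is a run of letters, not a measured binding site.

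The start of full-length Pik3r1 and the start inside the gene are shown because their base composition lies on opposite sides of the median over promoters. The first, at chr13:101768218-101768467 on the minus strand, holds 3 SP and KLF boxes and a CCAAT box in a 300-base window of 75.7% G and C, more than 95.6% of promoters. The second, at chr13:101692631-101692880 on the same strand, holds a TEAD consensus in a window of 43.7% G and C, more than 14.04% of promoters. The median over promoters was 56.7%.
Pik3r1 full-length promoter: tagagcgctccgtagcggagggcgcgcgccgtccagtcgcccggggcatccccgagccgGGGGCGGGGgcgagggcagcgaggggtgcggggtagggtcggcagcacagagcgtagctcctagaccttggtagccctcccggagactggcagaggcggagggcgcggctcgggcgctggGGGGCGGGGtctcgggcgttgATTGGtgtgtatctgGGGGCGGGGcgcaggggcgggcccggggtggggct
Pik3r1 internal promoter: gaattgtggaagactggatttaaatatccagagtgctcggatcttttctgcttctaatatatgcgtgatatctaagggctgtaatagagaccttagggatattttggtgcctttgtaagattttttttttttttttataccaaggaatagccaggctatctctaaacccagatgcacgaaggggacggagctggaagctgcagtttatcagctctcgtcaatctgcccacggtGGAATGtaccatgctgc
The upstream start of Akt1, at chr12:112674885-112675134 on the minus strand, is shown because it was the only one of the 12 member windows with the FOXO consensus TGTTTAC, which 3.03% of promoters hold. Outside these 12 windows, the same letters stood in the summit windows of peaks just upstream of 5′ ends. These were at Irs2, chr8:11009193-11009492, and at Foxo1, chr3:52267895-52268194. Foxo1, at chr3:52268087-52268335 on the plus strand, is shown because its start lay in a gap between peaks, described below, and Foxo3, at chr10:42276756-42276945 on the minus strand, because its promoter carried the highest fold of the 8. Capitals mark 3 CCAAT boxes in the printed bases of Foxo1, and a TEAD consensus and an SP and KLF box in those of Foxo3.
Akt1 upstream promoter: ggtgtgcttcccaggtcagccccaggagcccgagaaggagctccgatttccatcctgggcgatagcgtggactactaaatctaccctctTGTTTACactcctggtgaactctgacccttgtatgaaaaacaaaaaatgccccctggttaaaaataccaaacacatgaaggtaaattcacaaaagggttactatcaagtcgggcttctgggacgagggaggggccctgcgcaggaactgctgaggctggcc
Foxo1 promoter: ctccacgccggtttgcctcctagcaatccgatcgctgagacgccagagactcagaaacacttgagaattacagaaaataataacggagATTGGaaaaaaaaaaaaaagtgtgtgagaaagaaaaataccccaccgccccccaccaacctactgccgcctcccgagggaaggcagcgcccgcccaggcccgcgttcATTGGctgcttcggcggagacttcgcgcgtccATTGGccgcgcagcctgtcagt
Foxo3 promoter: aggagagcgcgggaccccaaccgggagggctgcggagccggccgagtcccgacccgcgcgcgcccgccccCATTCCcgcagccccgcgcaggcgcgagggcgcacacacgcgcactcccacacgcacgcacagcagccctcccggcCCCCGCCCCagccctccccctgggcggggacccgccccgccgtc
In the 300-base windows the share of G and C was 79.7% at the full-length start of Akt1, 75.0% at Foxo3, 72.0% at Irs2, 71.3% at Irs1 and 61.3% at Foxo1. The ratio of CpG observed to expected was highest at Foxo1, 1.10, which exceeds 97.3% of promoters, and at Irs2, 1.06, which exceeds 95.4%. No member window held the cAMP response element, written TGACGTCA, the ETS consensus, written CCGGAAG, or the NRF1 consensus, written GCGCATGCG. Among all promoters these stood in 2.26%, 11.7% and 2.37%. The letters searched for MEF2, for GATA factors, for ERR, for AP-1 and for the glucocorticoid receptor, which are given with the peaks, were also in no member window, and stood in 0.413%, 9.68%, 4.06%, 7.04% and 16.3% of promoters. From such absences nothing follows about the factors. The TATA box, written TATAAA, stood in 12.7% of promoters and, of the 12 member windows, in that of the internal start of Pik3r1. The TEAD letters were found in 5 of the 12 windows and 13.5% of promoters, the CCAAT box in 4 and 38.5%, and the SP and KLF box in 5 and 15.5%.

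All 8 genes had a peak within 1 kb of the 5′ end of the gene in the replicated list, and all 8 also had one in the list of each biological replicate. Among all protein-coding genes 53.7% had a peak at the 5′ end, and 57.3% had one within 1 kb of any annotated transcription start site. The 5′ peaks of the 8 genes had a median deposited fold of 23.7, where the fold is the authors' enrichment of the peak, against 13.0 over the 11671 genes with a 5′ peak. Their median width was 3.16 kb, against 1.39 kb. In a whole tissue, the share of cells that carry the mark and the amount of mark per cell cannot be told apart.

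**Figure D1:**
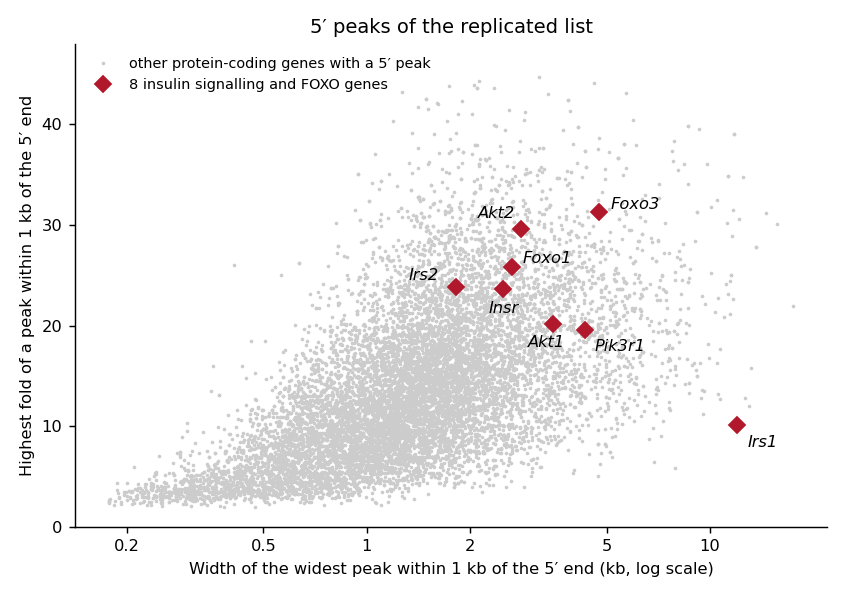
Each point is a protein-coding gene with a peak within 1 kb of its 5′ end in the replicated list, by the width of the widest such peak (kb, log scale) and the highest deposited fold (linear). The 8 genes (diamonds) lie between folds of 10.1 and 31.3, and Irs1 stands apart with a 12.0 kb peak of low fold.

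The length under peaks differed widely among the genes. It is given here over the gene and 50 kb on both sides, and the median of the 8 was 21.0 kb in the replicated list, 15.6 kb in the list of replicate 1 and 24.0 kb in that of replicate 2. Over all protein-coding genes the medians were 4.39, 3.604 and 5.37 kb. The order from the replicated list was Insr, Pik3r1, Foxo3, Irs1, Akt1, Akt2, Foxo1 and Irs2. The ranges of Insr, Pik3r1, Foxo3 and Irs1 over the lists of the replicates overlapped, and so did those of Akt1 and Akt2. The range of Akt1 also overlapped those of Pik3r1 and Foxo3, and the range of Akt2 overlapped that of Pik3r1. Within every list, however, Insr was the highest and Akt1 lay above Akt2. The order of Pik3r1, Foxo3 and Irs1 turned between the replicates. With windows of 100 kb Pik3r1 had 29.9 kb and Insr 29.5 kb. In the same windows Akt1 had 28.97 kb, above Foxo3 with 28.7 kb and Irs1 with 25.2 kb. Counting only peaks of at least the median fold, 4.55, gave Irs1 20.5 kb and Insr 19.3 kb, so Insr was no longer first. With only the gene and 1 kb before it, Akt2 had 8.76 kb and Akt1 7.88 kb. Foxo1 lay below Akt2, and Irs2 below Foxo1, in every list. Without peaks at starts of other coding genes Akt2 had 9.42 kb and Foxo1 9.82 kb, so the order of Akt2 and Foxo1 turned. Longer genes have longer windows, so the genes were divided into 10 classes by gene length and each of the 8 was also ranked in its class. Irs1 had more than 95.1% of the 2173 genes of its class, Foxo1 more than 67.4% and Irs2 more than 51.6%, and the other genes lay between Irs1 and Foxo1.

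**Figure D2:**
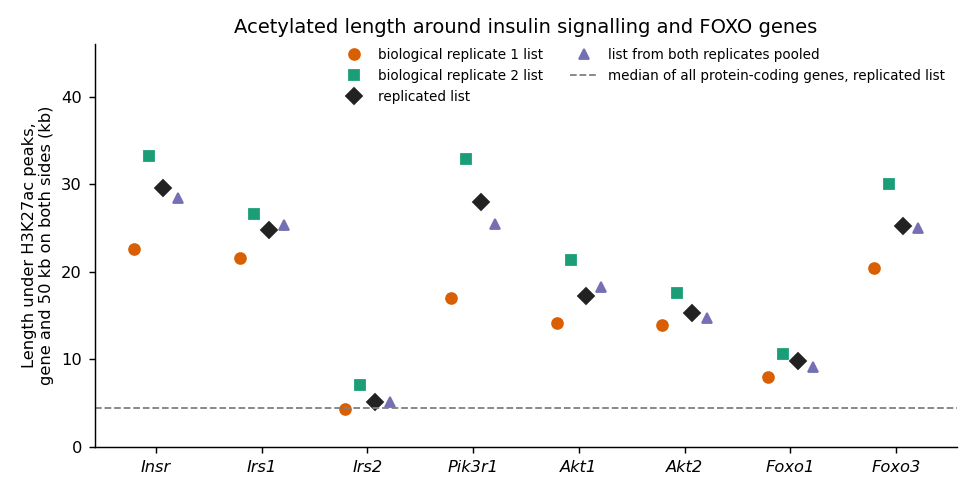
Length covered by H3K27ac peaks (kb, linear axis from 0) over each gene and 50 kb on both sides, in the 4 deposited lists; there are no error bars, and the dashed line is the median of all protein-coding genes in the replicated list, 4.39 kb. The list of replicate 2 is the highest and that of replicate 1 the lowest for every gene, and 7 of the 8 genes lie above the line in all lists while Irs2 falls to 4.27 kb in replicate 1.

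**Figure D3:**
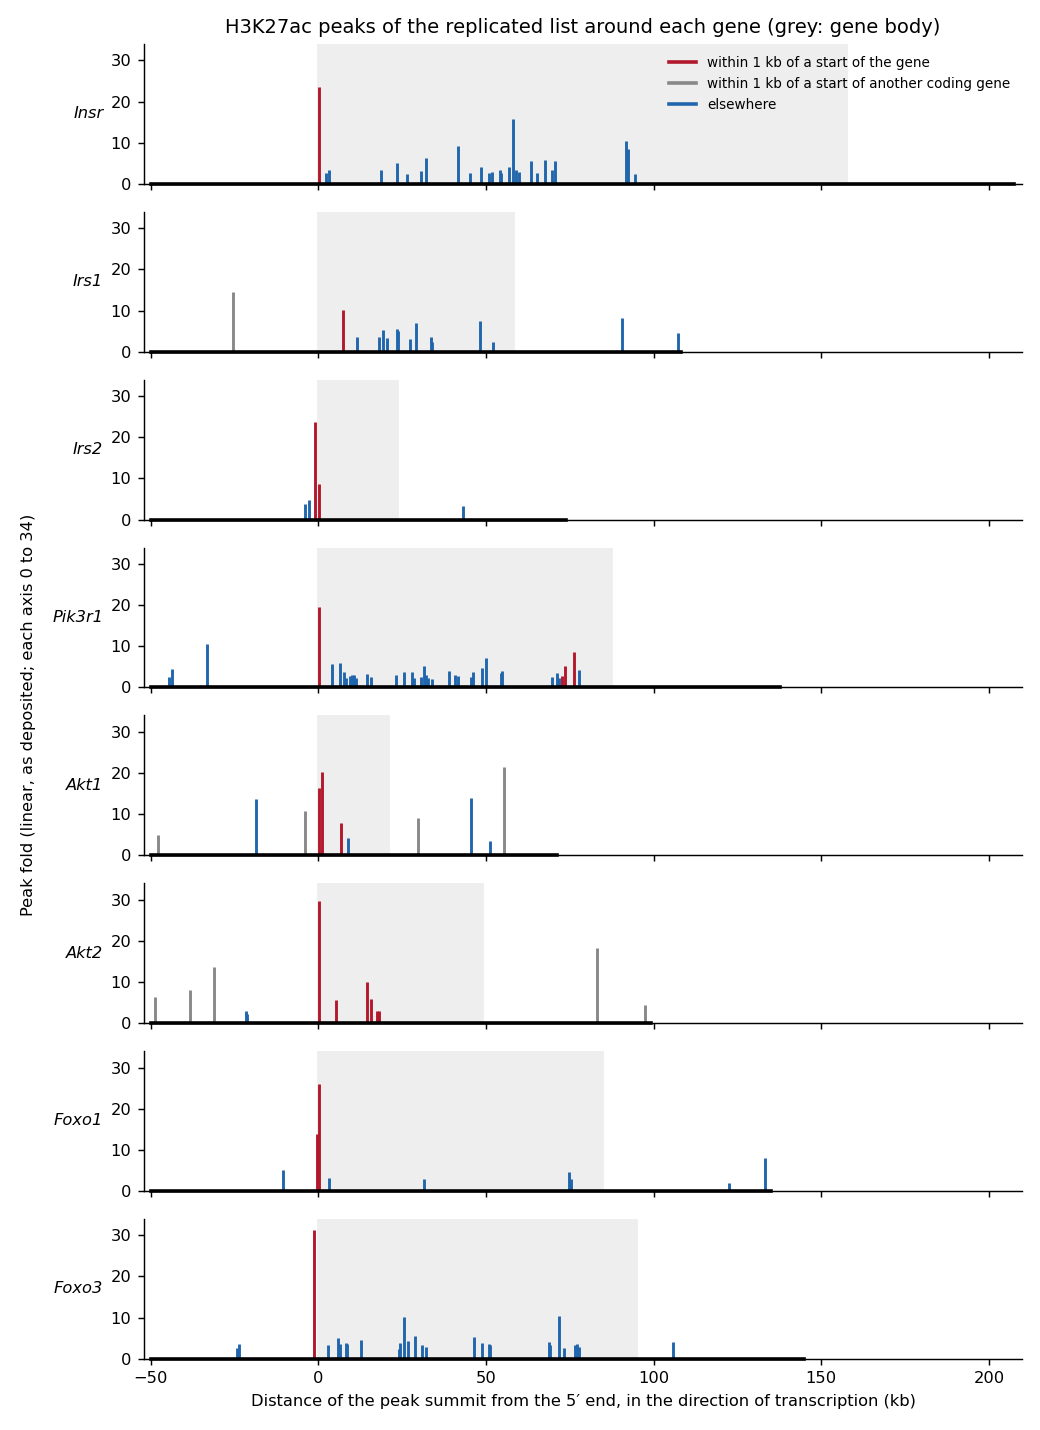
Peaks of the replicated list as bars at the distance of their summit from the 5′ end (kb), with the deposited fold as height (linear) and 1 panel per gene; the black line is the window searched and grey is the gene. Insr, Pik3r1, Irs1 and Foxo3 carry rows of intronic peaks, while Akt1 and Akt2 share their windows with promoters of other genes and Irs2 has 5 peaks.

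Insr, the receptor tyrosine kinase for insulin, lies on the minus strand of chromosome 8 (chr8:3122061-3279617, mm10) and is the longest of the 8 at 158 kb. Its length under peaks was 22.5 kb in replicate 1, 33.2 kb in replicate 2, 29.5 kb in the replicated list and 28.4 kb in the pooled list. This was more than 97.2% of all protein-coding genes and more than 90.0% of the genes in its length class. All 27 peaks of the replicated list lay inside the gene, 26 of them with the summit in an intron away from any start. In that list the 50 kb on either side held none. The list of replicate 2 had an upstream peak at chr8:3313999-3314344 with a fold of 2.45, without a partner in replicate 1. The 5′ peak was 2.49 kb wide with a fold of 23.6 in the replicated list, 18.8 in replicate 1 and 30.0 in replicate 2. Insr had 5 distinct annotated starts, and the 2 that carried a peak share that 5′ peak. When peaks within 12.5 kb of one another were joined, the promoter of Insr stood in a small region of 3 peaks and 3.45 kb. Of the 26 intronic peaks, 2 were in that region, 21 formed a separate region that covered 23.1 kb of 52.4 kb, 296th of 20739 regions by covered length, and the 3 farthest from the start formed another.

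The strongest intronic peak of Insr lay 58.1 kb inside the gene and was 1.52 kb wide, with a fold of 15.8, higher than 92.2% of all replicated peaks. The folds were 10.8 in replicate 1 and 22.3 in replicate 2. Its summit window (chr8:3221318-3221617, plus strand of the genome) is shown because it is the highest peak of the 8 genes that lies in an intron and away from all coding starts. It held none of the consensus sequences marked in the other windows.
Insr intron, summit of the 58.1 kb peak: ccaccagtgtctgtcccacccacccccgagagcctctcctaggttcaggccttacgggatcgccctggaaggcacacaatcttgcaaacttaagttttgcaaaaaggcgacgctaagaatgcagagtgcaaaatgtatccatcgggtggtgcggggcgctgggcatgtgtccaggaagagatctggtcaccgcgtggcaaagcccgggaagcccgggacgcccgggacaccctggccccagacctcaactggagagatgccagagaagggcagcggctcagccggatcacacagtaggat
Next in fold were an intronic peak 91.6 kb inside the gene, with a fold of 10.5 (8.21 in replicate 1 and 13.3 in replicate 2), and the widest peak, 4.94 kb, at 41.6 kb, with a fold of 9.26 (7.90 and 14.3). All of these were found in both single-replicate lists.

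Irs1, which couples the receptor to PI3K, lies on the minus strand of chromosome 1 (chr1:82233101-82291416). Its length under peaks was 21.6 kb in replicate 1, 26.6 kb in replicate 2, 24.8 kb in the replicated list and 25.3 kb in the pooled list, more than 95.2% of all genes. Peaks covered 15.7% of its window, the highest share of the 8 in the replicated list, and 13.6% in replicate 1, also the highest. In replicate 2 its share of 16.8% was below those of Akt1, 17.6%, and Pik3r1, 17.5%. The 5′ peak was 12.0 kb wide, wider than the 5′ peaks of 99.9% of genes with one, and 10423 of its bases lay inside the gene, with the summit 7.48 kb from the 5′ end. Its fold of 10.1 was higher than at only 34.8% of those genes. In single lists the fold was 11.9 in replicate 1 and 12.4 in replicate 2, and the widest peak at the 5′ end was 3.86 kb and 12.2 kb. Irs1 had the lowest fold of the 8 in every list. Its 5′ peak was the widest of the 8 in the replicated list and in replicate 2, but in replicate 1 that of Foxo3 was wider, 4.73 kb.

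Of 16 peaks around Irs1, 12 were intronic and away from its start. The highest fold away from coding starts was 8.20, in a peak of 2285 bp that lay beyond the 3′ end, 90.7 kb from the 5′ end, with 10.8 in replicate 1 and 10.7 in replicate 2. Its summit window (chr1:82200544-82200843, plus strand of the genome) is shown because it held the FOXO consensus, here with 2 TEAD matches, a CCAAT box and a glucocorticoid receptor match.
Irs1 downstream, summit of the 90.7 kb peak: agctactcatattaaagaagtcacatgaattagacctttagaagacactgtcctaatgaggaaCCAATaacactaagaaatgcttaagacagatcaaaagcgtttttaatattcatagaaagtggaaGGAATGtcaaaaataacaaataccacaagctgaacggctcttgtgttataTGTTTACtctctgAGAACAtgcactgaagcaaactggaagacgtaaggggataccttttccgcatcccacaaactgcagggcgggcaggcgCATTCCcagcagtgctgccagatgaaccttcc
The next peaks by fold were intronic, at 48.3 kb with a fold of 7.45 and at 29.2 kb with 6.92. A peak with a fold of 14.5 lay 25.3 kb upstream at a start of Rhbdd1, the neighbouring gene.

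Irs2, the second substrate of the receptor in most tissues, lies on the minus strand of chromosome 8 (chr8:10984681-11008458) and had the least acetylation of the 8. Its length under peaks was 4.27 kb in replicate 1, 7.08 kb in replicate 2 and 5.12 kb in both the replicated and the pooled list. This was more than 54.1% of all genes, so Irs2 stood close to the middle of the genome while its partner Irs1 stood near the top. The low length did not go with a low promoter. The 5′ peak was 1.82 kb wide and had a fold of 23.8, higher than at 88.7% of genes with a 5′ peak, with 19.0 in replicate 1 and 29.6 in replicate 2. Only 5 peaks lay in the window, and 4 of them stood within a region of 5.74 kb around the start. Apart from the pair at the start, 3 peaks had folds of 4.70, 3.70 and 3.22, at 2.70 and 3.84 kb upstream and at 43.1 kb, beyond the 3′ end.

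The 5′ end of Irs2 was not covered by a peak in the replicated list. It lay in a gap of 78 bp between 2 peaks, chr8:11008457-11008534, and the RefSeq start used for the sequence above lies further upstream at 11008929, inside the stronger peak. Foxo1 had the same arrangement, with a gap of 99 bp at chr3:52268274-52268372 that holds its start. Such a gap was found at 2 of the 8 genes, against 10.5% of the 11671 genes with a 5′ peak. In replicate 2 the 5′ ends of all 8 genes were covered, and in replicate 1 those of Insr, Irs2 and Foxo1 were not. In Akt1 the start of the full-length transcript, at 112674276, also lay between 2 peaks, with folds of 20.2 and 16.4, though the 5′ end of the gene record was covered.

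Pik3r1 encodes the subunit that holds the catalytic subunit of PI3K to phosphorylated substrates, and lies on the minus strand of chromosome 13 (chr13:101680563-101768217). Its length under peaks was 17.1 kb in replicate 1, 32.9 kb in replicate 2, 28.0 kb in the replicated list and 25.4 kb in the pooled list. This was more than 96.7% of all genes, and replicate 2 exceeded replicate 1 by 1.93 times, the largest ratio of the 8. Pik3r1 also had the most peaks, 39, of which 29 were intronic and away from starts, and many were weak, with a median fold of 3.32. Of the 39, 17 had a partner in each replicate's list and 10 had none in either. Its full-length start fell in a joined region of 29 peaks, 26 of them intronic, that covered 21.3 kb of 56.2 kb, 346th of 20739. Another 7 peaks inside the gene formed a separate region around the internal starts, and the 3 upstream peaks formed the last.

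Pik3r1 is read from several starts, which give proteins of different length that share the PI3K-binding part. The start of the transcript with 724 codons, the full-length p85α form, had a 4.34 kb peak with a fold of 19.6, 15.6 in replicate 1 and 24.4 in replicate 2. The start of the transcript with 454 codons, 75.6 kb inside the gene, had a 2.10 kb peak with a fold of 8.61, 6.94 in replicate 1 and 12.3 in replicate 2. The internal start thus had the lower fold in every list, and the order was the same in both replicates. Of 7 distinct starts 6 had a peak, the exception being that of a retained-intron transcript, and another coding transcript 73.6 kb inside the gene had a peak with a fold of 5.12. The highest fold away from starts was 10.5, in a peak of 1.38 kb that lay 33.3 kb upstream, with 7.83 in replicate 1 and 13.5 in replicate 2. Its summit window (chr13:101801378-101801677, plus strand of the genome) is shown because it held the FOXO consensus, on the reverse strand, with an AP-1 match and a glucocorticoid receptor match.
Pik3r1 upstream, summit of the 33.3 kb peak: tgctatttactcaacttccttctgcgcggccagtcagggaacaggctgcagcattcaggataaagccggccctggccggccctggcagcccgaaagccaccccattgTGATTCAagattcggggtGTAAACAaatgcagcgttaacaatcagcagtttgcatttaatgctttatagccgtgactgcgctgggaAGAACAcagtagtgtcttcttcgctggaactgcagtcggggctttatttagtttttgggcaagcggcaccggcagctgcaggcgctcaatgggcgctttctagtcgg
Intronic peaks at 49.9 kb, with a fold of 7.20, and at 6.58 kb, with 5.86, followed.

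Akt1 and Akt2, the kinases activated downstream of PI3K, lie among other genes, and their windows were shared with those genes' promoters. Akt1 lies on the minus strand of chromosome 12 (chr12:112653821-112674884). Its length under peaks was 14.1 kb in replicate 1, 21.4 kb in replicate 2, 17.3 kb in the replicated list and 18.3 kb in the pooled list. Of the 17.3 kb, 6.68 kb lay at starts of other coding genes and 7.88 kb inside Akt1. The neighbours were Adssl1, an adenylosuccinate synthase of muscle, with a fold of 21.5, Zbtb42 with 10.7, Siva1 with 9.05 and Cep170b with 5.02. At Akt1 itself the stronger 5′ peak was 3.49 kb wide with a fold of 20.2, 16.4 in replicate 1 and 25.4 in replicate 2. Of 9 distinct starts 6 had a peak, and the 3 without were those of retained-intron transcripts. Away from coding starts, a peak 45.5 kb from the 5′ end and beyond the 3′ end had a fold of 13.8 (10.8 and 17.9), and one 18.5 kb upstream, at an exon of the unclassified gene Gm30238, had 13.6 (11.5 and 16.0). Away from coding starts, only the intronic peak of Insr at 58.1 kb was higher among the 8 genes.

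Akt2 lies on the plus strand of chromosome 7 (chr7:27591552-27640826). Its length under peaks was 13.9 kb in replicate 1, 17.5 kb in replicate 2, 15.3 kb in the replicated list and 14.7 kb in the pooled list. The 5′ peak of 2.82 kb had a fold of 29.6, higher than at 96.4% of genes with a 5′ peak, with 22.7 in replicate 1 and 37.7 in replicate 2. The folds at the first start of Akt2 were above those at Akt1 in both replicates and in the replicated list. Akt2 had 14 distinct starts, and 12 had a peak. The transcripts with the full 481 codons begin at the 5′ end and again 14.3 kb inside the gene, where a 1.20 kb peak had a fold of 10.05, 8.19 in replicate 1 and 12.9 in replicate 2. All 6 peaks inside Akt2 lay within 1 kb of one of its starts, and no other intronic peak was found. At the neighbours the folds were 18.2 at Map3k10, a kinase of stress signalling, 13.6 at 2310022A10Rik, 8.06 at Pld3 and 4.28 at Zfp607b, and these starts made up 5.91 kb of the length.

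The 2 peaks near Akt2 that lay at no coding start were weak, with folds of 2.83 and 2.11, at 21.6 and 21.2 kb upstream. The summit window of the first (chr7:27569756-27570055, plus strand of the genome) is shown because the FOXO consensus and the insulin response element overlap in it, beside a GATA match.
Akt2 upstream, summit of the 21.6 kb peak: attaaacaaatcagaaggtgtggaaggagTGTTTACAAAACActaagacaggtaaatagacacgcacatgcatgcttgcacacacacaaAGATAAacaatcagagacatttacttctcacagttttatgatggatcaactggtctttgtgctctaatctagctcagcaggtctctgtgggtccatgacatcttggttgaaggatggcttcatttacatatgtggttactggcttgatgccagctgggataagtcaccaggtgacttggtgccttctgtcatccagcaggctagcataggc
This peak overlapped one in each single-replicate list, with folds of 3.14 and 3.55, and its fold was higher than that of 11.7% of the list.

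Foxo1 and Foxo3, the FOXO factors that AKT phosphorylates, had the strongest promoters of the set together with Akt2. Foxo3 lies on the minus strand of chromosome 10 (chr10:42181841-42276755) and had a 5′ peak of 4.76 kb with a fold of 31.3, higher than at 97.5% of genes with a 5′ peak. In single lists the fold was 24.8 in replicate 1 and 38.7 in replicate 2, the highest of the 8 in both. Foxo1 lies on the plus strand of chromosome 3 (chr3:52268336-52353221), and the stronger of the peaks on either side of its start was 2.65 kb wide with a fold of 25.9, 22.2 in replicate 1 and 30.6 in replicate 2. That fold was higher than at 92.3% of genes with a 5′ peak. The other peak, upstream of the start, was 1889 bp wide with a fold of 13.8.

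In windows of 50 kb the FOXO genes differed more in the length around them than at their starts. Foxo3 had 20.5 kb in replicate 1, 30.0 kb in replicate 2, 25.2 kb in the replicated list and 24.95 kb in the pooled list. Foxo1 had 7.94, 10.6, 9.82 and 9.15 kb in the same lists. The genes are of similar length, 94.9 and 84.9 kb, and the lists did not overlap: the lowest value of Foxo3 was above the highest of Foxo1. Counting 100 kb on both sides in the replicated list gave 28.7 kb for Foxo3 and 17.3 kb for Foxo1. Foxo3 had 28 peaks, 24 of them intronic, which covered 19.3 kb, and Foxo1 had 9, of which 4 were intronic and covered 2.79 kb. Neither window held a peak at the start of another coding gene.

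Within Foxo3 the strongest intronic peaks lay 71.7 kb inside the gene, 2.00 kb wide with a fold of 10.4 (9.07 in replicate 1 and 12.3 in replicate 2), and at 25.6 kb, with a fold of 10.2 (9.58 and 12.4). The widest intronic peak of Foxo3, 3465 bp at 28.9 kb, had a fold of 5.56. Around Foxo1 the strongest peak away from starts lay beyond the 3′ end, 133 kb from the start, with a fold of 7.98 (7.05 and 10.2). It was followed by one 10.4 kb upstream with 5.21 (4.10 and 7.04) and an intronic one at 74.7 kb with 4.49 (4.59 and 5.51).

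Over the 8 genes, 20 of the 148 peaks lay at starts of the genes and covered 50.2 kb, and 96 were intronic and covered 75.9 kb. Another 3 were exonic and covered 0.968 kb, 10 lay at starts of other coding genes and covered 13.8 kb, and 19 lay elsewhere and covered 14.2 kb. Introns thus held more acetylated length than starts, although single starts had the higher folds. Introns and starts span different lengths, and the same split was not made over all genes. The 12.0 kb peak of Irs1, with its summit in an intron, was counted at a start. Of the 23 peaks with a fold of 10 or more, 11 lay at starts of the genes, 5 at starts of other coding genes and 7 elsewhere. Such peaks made up 15.5% of the 148 and 18.6% of all replicated peaks.

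In the 118 peaks away from coding starts, the FOXO consensus was found in 6 summit windows of 300 bases, or 5.08%, against 5.04% of 45003 such windows over the genome and 4.42% of all 63060 windows. The insulin response element was found in 10, or 8.47%, against 10.5% and 8.97%. These shares stood close to the background. The widest differences were for the glucocorticoid receptor letters AGAACA, in 40 windows or 33.9% against 26.5% and 22.9%, and the ERR letters AAGGTCA, in 2 or 1.69% against 6.98% and 6.26%. Neighbouring windows share sequence composition, and no test was made. The TEAD letters were found in 17.8% against 16.9% away from coding starts, and AGATAA, a binding sequence of GATA factors, in 15.3% against 15.4%. The AP-1 letters TGANTCA were found in 13.6% against 9.41%, and the MEF2 letters CTAAAAATA in 1 window or 0.847% against 0.878%.

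The share of peaks found in both replicates rose with the fold, for these genes as for all peaks. Of the 148 peaks, 92 or 62.2% were matched in the lists of replicate 1 and of replicate 2 alike (95% exact binomial interval 53.8% to 70.0%, which covers counting error only), against 73.0% of all replicated peaks. A further 33 overlapped a peak of replicate 2 only, 6 of replicate 1 only and 17 or 11.5% of neither, where all peaks gave 17.6%, 3.56% and 5.86%. With a fold of 5 or more, every member peak was in both lists, 30 with a fold of 5 to 10 and 23 with 10 or more, where all peaks gave 99.0% and 100%. With a fold of 3 to 5 the count was 33 of 58 or 56.9%, against 64.2% of all peaks, and under 3 it was 6 of 37 or 16.2%, against 22.8%. Pik3r1 held 10 of the 17 peaks found in neither list. In the windows, 8 of 110 peaks of replicate 1, or 7.27%, had no partner in the list of replicate 2, against 5.35% of that whole list, with folds of at most 4.01. In the other direction 42 of 127 peaks of replicate 2, or 33.1%, had none, against 32.2%, with folds of at most 7.54, the highest being 107 kb from the start of Irs1. Among the 92 shared peaks, the log2 folds of both lists had a Pearson correlation of 0.850 and a Spearman correlation of 0.809. These are correlations across peaks, which are not independent replicates. The highest overlapping fold was taken, so 1 wide peak of a single list could stand for several member peaks. The replicate 2 peak with a fold of 30.6 stood for the peaks on both sides of the Foxo1 start. The fold was higher in replicate 2 for 80 of the 92, but folds of separate lists are not on a common scale and no change is read from this.

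**Figure D4:**
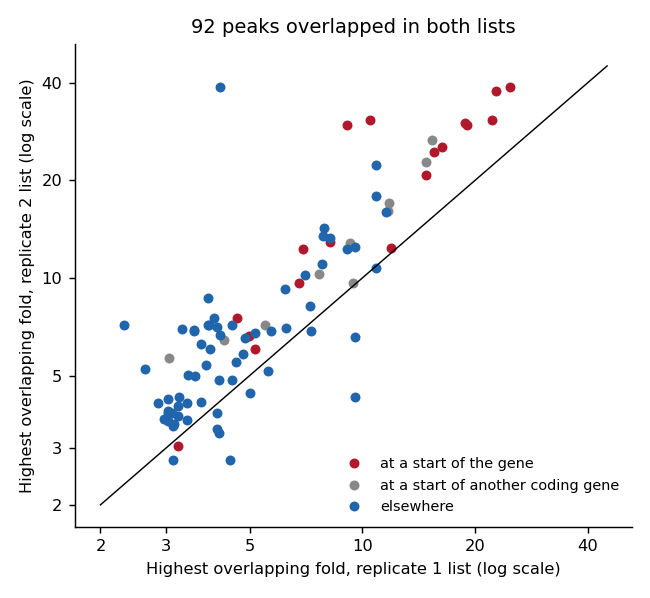
Highest deposited fold of an overlapping peak in the list of replicate 1 and in that of replicate 2 (both log scales) for the 92 member peaks found in both, with the line of equal values. Of these, 80 lie above the line, and the point farthest above it is a small peak of Foxo3 that the wide promoter peak of replicate 2 spans.

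Most other genes of the pathway also had a promoter peak, with less length under peaks than the 8. Of 52 further genes of insulin and PI3K signalling, 50 had a promoter peak, against 57.3% of all protein-coding genes, and 47 of them had one at the 5′ end, against 53.7%. Their median length under peaks was 12.0 kb, 10.1 kb in replicate 1 and 14.8 kb in replicate 2, where the 12450 protein-coding genes with a promoter peak had a median of 7.95 kb in the replicated list. The 2 without were Insrr, the receptor-related kinase, which had 5 peaks over 9.24 kb in its window, and Irs4, a further receptor substrate, with no peak at all. Among the genes with the most acetylated length were Tbc1d1 with 62.2 kb, Gab1 with 49.4 kb, Ddit4 with 46.4 kb, Igf2r with 44.3 kb and Tsc2 with 28.5 kb. Tbc1d1 encodes a Rab regulator of glucose transporter traffic, and Gab1 a docking protein for PI3K. Ddit4 and Tsc2 encode inhibitors of the mTOR complex that AKT activates, and Igf2r a receptor that clears insulin-like growth factor 2.

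Of 32 genes known as FOXO targets, 29 had a promoter peak and 28 had one at the 5′ end, against the same 57.3% and 53.7%. Their median length was 8.27 kb, close to the 7.95 kb of genes with a promoter peak, 6.73 kb in replicate 1 and 9.55 kb in replicate 2. The 3 without were G6pc, Pck1 and Igfbp1, which are FOXO targets of liver: the first and second encode enzymes of glucose production and the third a binding protein of insulin-like growth factors. The most acetylated were Txnip with 38.9 kb, Sesn1 with 36.05 kb, Fbxo32 with 25.6 kb, Map1lc3b with 22.2 kb, Becn1 with 20.4 kb and Bcl6 with 15.4 kb. Fbxo32 encodes the muscle ubiquitin ligase atrogin-1, with a promoter fold of 28.4 (25.4 in replicate 1 and 24.4 in replicate 2), and Txnip an inhibitor of glucose uptake, with 26.8 (21.9 and 32.4). Map1lc3b and Becn1 act in autophagy, Sesn1 in the stress control of mTOR, and Bcl6 is a transcriptional repressor with a promoter peak 13.6 kb wide. These lists hold target genes by their known role, and FOXO binding was not measured.

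**Figure D5:**
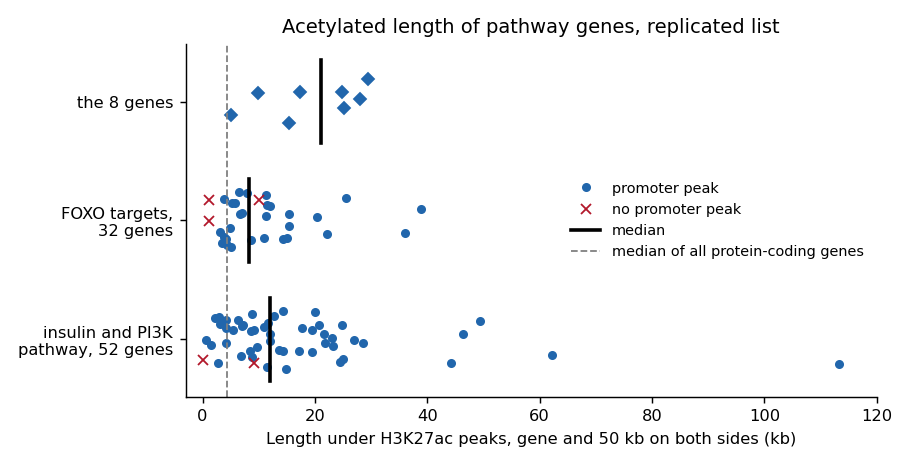
Length under H3K27ac peaks of the replicated list (kb, linear) for the 8 genes, for 32 FOXO targets and for 52 further genes of the pathway; each point is a gene, crosses are genes without a promoter peak and bars are medians of 21.0, 8.27 and 12.0 kb. The dashed line is the median of all protein-coding genes, 4.39 kb, which includes genes without a promoter peak (7.95 kb for those with one), and points are spread vertically at random for legibility.

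The tissue label was checked against marker genes. A promoter peak was present at 6 of 6 cardiomyocyte markers, 5 of 5 endothelial and 5 of 5 fibroblast markers, at 1 of 5 skeletal muscle markers (Actn3), and at 0 of 5 markers each of macrophages, adipocytes, hepatocytes and neurons. In the list of replicate 2 alone, 2 of the 5 macrophage markers had one, Cd68 with a fold of 3.22 and Ptprc with 3.42. The windows of the macrophage markers had a median of 11.8 kb under peaks, against 10.7 kb for the fibroblast markers and 24.4 kb for the cardiomyocyte markers. The macrophage values ran from 0 kb at Adgre1 and Ptprc to 22.0 kb at Cx3cr1, and the fibroblast values from 5.94 to 23.2 kb. Window length counts peaks by position, at promoters or not. The part of each cell type in the acetylation of the 8 genes was not tested.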

How the data were processed

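H3K27ac peak lists of heart tissue were used, from 4 libraries of 1 group. Per the files deposited beside the libraries, 1 list holds replicated peaks from both biological replicates, 1 holds pseudoreplicated peaks of both together (the pooled list), and 1 each those of biological replicate 1 and 2. The fold of each peak is the authors' deposited ratio, taken as an enrichment over control because of its column in the file format. Deposited −log10 p and −log10 q values come from the peak caller, and the lowest −log10 p in the replicated list was 2.03. Fold was used only to rank, describe or filter peaks within a list. Coordinates are mm10 per the labels. The sources used here name no aligner or peak caller and no read numbers, so depth is unknown. Reads came from a hybrid of strains, and the effect of strain variants on peaks was not tested.

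Starts and exons came from GENCODE M21, and sequence from GRCm38.p6. A promoter peak lies within 1 kb of an annotated start, and length under peaks was counted within 50 kb of the gene. Peaks overlapped if they shared 1 bp. Consensus sequences were counted on both strands of 300-base windows of promoters and peak summits, and the background of windows away from coding starts was added after the data were seen. Python 3.11.15, pandas 2.3.3, numpy 2.4.6 and scipy 1.17.1 were used, and functions were tested on simulated data.

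The genes, gene lists and consensus sequences were chosen with earlier results of these data known. Named are the 8 genes, other coding genes whose start carries a peak in a window, of each pathway list the 6 genes with most acetylated length and all without a promoter peak (some are not reported here), and of each gene the 3 strongest peaks away from promoters and the widest. Starts with their own peaks, and sequences shown for a consensus they hold, were chosen after their values were seen. Alternatives were another list, stricter peaks, other windows and distances, and leaving out each replicate.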

Additional observations from a re-analysis of the deposited data

How the results depend on the processing

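The count of 8 genes with a promoter peak stayed at 8 under every alternative run: the pooled list, either replicate left out, peaks with a −log10 q of at least 3 or at least the median fold of 4.55, promoter distances of 0.5 and 2.5 kb, and the 5′ end alone. Further pathway genes and FOXO targets with a promoter peak together numbered 78, with Eif4ebp1, which is in both lists, counted once. The number ranged from 74 to 78, and leaving out a replicate left 78 both times. The median length under peaks, 21.0 kb, became 14.3 kb when only the gene and 1 kb before it were counted, and ranged from 15.6 to 24.0 kb with a replicate left out. The 148 peaks became 60 with peaks of at least the median fold, which removes weaker peaks by construction, and 110 to 127 with a replicate left out. The share of peaks found in both single-replicate lists, 62.2%, became 39.9% when at least 50% of each peak had to be covered and 78.9% with a −log10 q of at least 3. For single genes, the length moved by more than the spread between the lists of the replicates in 5 of 8 with the gene alone and in 5 of 8 with the fold limit. It did so in 4 of 8 with 100 kb, in 2 of 8 with 25 kb, and in Akt1 and Akt2 without peaks at starts of other coding genes, which left 10.6 and 9.42 kb.

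No paired analysis was possible because there is 1 group and no result comes from a test. The depth of the libraries is unknown, so the absence of a weak peak from a list is not evidence that the mark was absent. Of the 63061 replicated peaks, 1332 had a q above 0.05, so the presence of a weak peak is uncertain too. In the member windows such peaks numbered 4 at Pik3r1 and 1 each at Irs1, Akt2 and Foxo1. Gene windows of 50 kb assign peaks by position only.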

Other observations

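Relatives of the 8 genes, chosen after their values were seen, differed in the same measures. The remaining FOXO genes had lower promoter folds than Foxo1 and Foxo3: Foxo4 had 8.82, with 8.19 in replicate 1 and 8.13 in replicate 2, and Foxo6 had 4.33, with 3.92 and 3.77. Igf1r, the receptor of insulin-like growth factor 1, had a promoter fold of 27.01 and 20.8 kb under peaks. Irs3, a receptor substrate, had a promoter peak with a fold of 4.83. Slc2a4, the insulin-regulated glucose transporter, had 26.9 kb under peaks, 23.7 kb in replicate 1 and 27.7 kb in replicate 2, with a promoter fold of 21.9, and Slc2a1, the basal transporter, had 4.15 kb, 3.29 and 4.94 kb in the single lists, with a fold of 13.4.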
